A study of Mus musculus with 6 samples.

Results

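The 10 genes described here are antioxidant genes and targets of the transcription factor NRF2 (encoded by Nfe2l2), namely Nqo1, Hmox1, Srxn1, Txnrd1, Gclc, Gclm, Cat, Sod2, Gpx3 and Txnip. They were taken from a list by name out of 29385 genes in the tables, and were chosen with earlier results of these data known. RNA was sequenced from 6 mouse heart samples in 3 groups of 2, collected 12 months after newborn mice had been given vehicle or a virus. The RH/+ vehicle group carried the genotype Myh6RH/+, the RH/RQ vehicle group carried Myh6RH/RQ, and the treated group carried Myh6RH/RQ and had received AAV-hpCas13d, an adeno-associated virus with a form of Cas13d, an enzyme that cuts RNA at guide-directed sites. Myh6 encodes the alpha heavy chain of cardiac myosin. All groups shared the RH allele, so no group of hearts with 2 unaltered alleles entered these comparisons. The labels give neither the virus promoter nor the guide, and whether each sample is a different animal is left unsaid; the p-values here thus cover the spread among these 6 samples, which may be technical.

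NRF2 is held in the cytoplasm by KEAP1, which directs its destruction. Oxidants and electrophiles modify KEAP1, and NRF2 then enters the nucleus, pairs with small MAF proteins and binds antioxidant response elements in the DNA, sites from which the repressor BACH1 is displaced. Nqo1, Hmox1, Gclc, Gclm, Txnrd1 and Srxn1 are textbook targets of this pathway. Sod2, Cat and Gpx3 encode antioxidant enzymes that other factors also control, and Txnip encodes an inhibitor of thioredoxin that responds to glucose through carbohydrate-sensing factors. In the heart these genes are followed as signs of oxidative stress.

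Levels are in CPM, the share of a library's gene-assigned reads in parts per 1000000, and whole reads were recovered from them. Library totals ran from 36269261 to 51017058 reads, and every one of the 10 genes had at least 230 reads in each library. The 10 genes all passed the filter on low values, as did 16804 genes in all. The cardiomyocyte markers Myh6 and Tnni3 were high in every library, at 14297 CPM or more for Myh6 and 3229 CPM or more for Tnni3. Sex-linked RNA separated the groups: the Y-linked Ddx3y was at 85.2 CPM in both RH/RQ vehicle libraries and at 0 reads in the other 4, and Xist was at 265 CPM or more in those 4 and at 0.274 CPM or less in the RH/RQ vehicle libraries. Any difference that involves the RH/RQ vehicle group therefore cannot be told apart from a difference in sex. Between treated RH/RQ and RH/+ vehicle hearts 0 of the 5 sex-linked genes differed by limma, with 0 at an unadjusted p under 0.05. Of the endothelial markers 0 of 5 were called in any comparison, and both tested neutrophil markers were higher in treated than in RH/RQ vehicle hearts. Both tested adipocyte markers were lower in RH/RQ vehicle than in RH/+ hearts. All 5 adipocyte markers summed to 0.893 CPM in RH/+ replicate 1, 7.22 CPM in RH/+ replicate 2 and 0.157 CPM or less for RH/RQ vehicle.

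The 250 bases before the RefSeq start sites (GRCm38.p6) are shown for 4 of the genes because they hold, or for the gene with the largest rise do not hold, the short motifs through which this pathway is usually read. They are the Nqo1 promoter (chr8:107403206-107403455, minus strand), the Srxn1 promoter (chr2:152105274-152105523, plus strand), the promoter of an internal start site of Txnrd1 (chr10:82858956-82859205, plus strand) and the Gclm promoter (chr3:122245307-122245556, plus strand). Capitals mark a match to TGACNNNGC, the core of the antioxidant response element, or to TGANTCA, the AP-1 motif, on either strand.
Nqo1: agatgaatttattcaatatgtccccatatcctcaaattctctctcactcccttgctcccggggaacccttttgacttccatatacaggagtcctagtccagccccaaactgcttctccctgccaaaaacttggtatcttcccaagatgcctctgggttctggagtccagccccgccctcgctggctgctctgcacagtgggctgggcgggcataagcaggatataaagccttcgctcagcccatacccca
Srxn1: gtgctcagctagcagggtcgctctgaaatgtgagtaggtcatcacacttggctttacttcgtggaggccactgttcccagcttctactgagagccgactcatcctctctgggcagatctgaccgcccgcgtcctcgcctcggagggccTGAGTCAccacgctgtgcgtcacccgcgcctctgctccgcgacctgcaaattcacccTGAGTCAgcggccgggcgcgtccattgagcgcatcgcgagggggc
Txnrd1: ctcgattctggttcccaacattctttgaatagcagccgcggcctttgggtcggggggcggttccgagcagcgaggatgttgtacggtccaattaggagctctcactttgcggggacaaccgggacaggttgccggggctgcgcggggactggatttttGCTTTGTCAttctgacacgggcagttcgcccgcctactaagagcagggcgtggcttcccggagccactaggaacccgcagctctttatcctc
Gclm: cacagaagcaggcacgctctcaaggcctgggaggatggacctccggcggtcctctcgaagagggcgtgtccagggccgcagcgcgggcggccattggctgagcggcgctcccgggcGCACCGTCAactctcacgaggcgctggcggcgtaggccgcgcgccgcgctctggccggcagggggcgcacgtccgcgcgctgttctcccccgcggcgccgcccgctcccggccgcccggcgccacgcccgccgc
Promoter sequences were found for 8 of the 10 genes, with 10 start sites between them; those of Hmox1 and Gclc are not printed. TGACNNNGC was in the window of Txnrd1 (92 to 84 bases before its start) and Gclm (134 to 126 bases before), and in 10.2% of the 32851 mouse promoters of the same length. TGANTCA occurred at 2 places before Srxn1, at 102 to 96 and at 45 to 39 bases, and in 6.75% of all promoters. With the GC that follows it, the site at 45 to 39 bases differs from TGACNNNGC by a base, so it was not counted there. The motifs can share bases, and the matches above did not. The E-box CACGTG, present in 6.02% of all promoters, was in none of the 8 genes' windows, and the forkhead motif TGTTTAC, present in 3.17%, was before Txnip alone, at 121 to 115 bases. Only these patterns were searched, so related sites that differ from them by a base, before Txnip or any other gene, were not counted. These matches describe letters in a window and do not show binding, and a missing match does not show that a window lacks a site.

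Per kilobase of annotated exon, Txnip had the highest mean level of the 10 genes over the 6 libraries at 132 CPM per kb, followed by Gpx3 at 125, Cat at 103 and Sod2 at 65.4 CPM per kb. Nqo1 stood at 45.7 CPM per kb. Srxn1 (11.8), Txnrd1 (11.4), Hmox1 (6.0), Gclc (5.37) and Gclm (3.97 CPM per kb) were lower. The range of Txnip over the libraries, from 107 to 161 CPM per kb, overlapped with those of Gpx3, from 116 to 154, and of Cat, from 85.3 to 115 CPM per kb, while the latter pair did not overlap. Sod2, between 60.0 and 72.5, overlapped with Nqo1, between 29.5 and 64.0 CPM per kb. Srxn1 overlapped with Txnrd1, and Hmox1, Gclc and Gclm overlapped with each other. All exons of a gene were counted in its length, which understates the level of a gene with long alternative exons.

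RH/RQ vehicle hearts were first compared with RH/+ vehicle hearts, which lacked the second Myh6 alteration and also differed in sex-linked RNA. Of the 10 genes 6 rose, 0 fell and 4 were not called by limma at a Benjamini-Hochberg adjusted p under 0.05; among all 16804 genes 3.48% rose, 1.51% fell and 4.99% were called in either direction. The 6 were Nqo1, Hmox1, Srxn1, Txnip, Cat and Txnrd1, with fold changes from 1.25 to 1.92. The median log2 fold change of the 10 genes was 0.37, and that of all genes was 0.04. Without RH/RQ vehicle replicate 1 limma called 3 of the 10, Nqo1, Hmox1 and Srxn1. Without any filter on low genes, which brought the call over all genes from 838 to 57, it called Srxn1 alone. On the recovered reads edgeR called 4 of the 10 (5.46% of all genes) and DESeq2 6, of which 5 rose and Sod2 fell (5.68% of all genes).

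**Figure D1:**
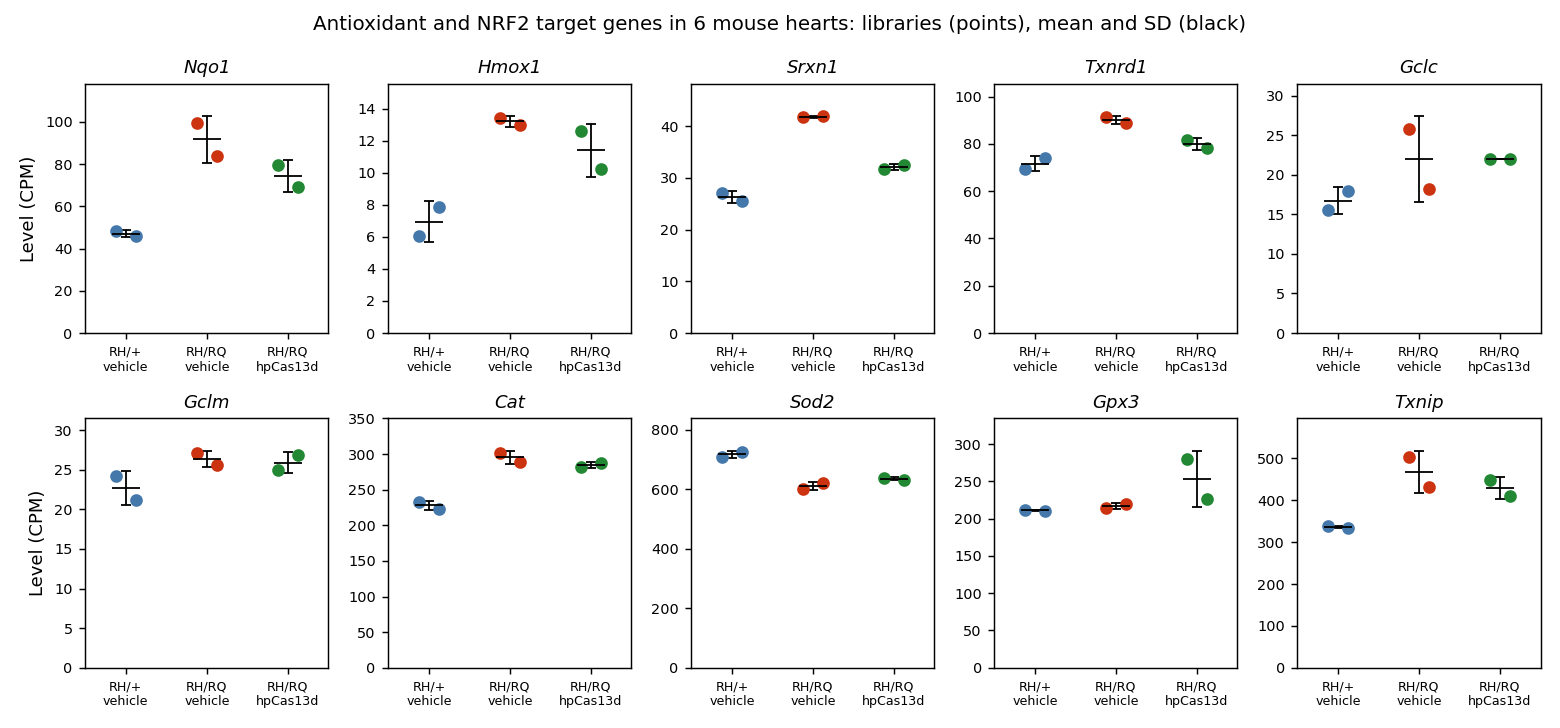
Level in CPM (vertical axes, each starting at 0) of the 10 genes in the RH/+ vehicle, RH/RQ vehicle and treated RH/RQ groups, with 1 point per library and the mean and SD of 2 libraries in black. All genes but Sod2 lay higher in both RH/RQ vehicle libraries than in both RH/+ libraries, Gclc and Gpx3 only narrowly, and Sod2 lay lower. The vehicle groups did not overlap for 49.3% of all genes.

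Nqo1 encodes a quinone reductase that detoxifies quinones by a two-electron transfer and is a standard readout of NRF2. Its gene lies on chromosome 8 at 107388225 to 107403206 (minus strand, GRCm38). It was at 48.3 and 45.8 CPM in the RH/+ libraries, at 99.4 and 83.9 CPM for RH/RQ vehicle and at 79.6 and 68.9 CPM after treatment. Both RH/RQ groups lay wholly above RH/+, and the treated libraries lay below both RH/RQ vehicle libraries. The rise in RH/RQ vehicle hearts was the largest of the 10, with a log2 fold change of 0.94 (standard error 0.11; adjusted p = 2.89e-06 by limma). It was called under 15 of 16 alternatives, with an adjusted p of 0.0532 when low genes were not filtered.

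Hmox1 encodes haem oxygenase-1, which breaks haem down to biliverdin, iron and carbon monoxide, on chromosome 8 at 75093621 to 75100589 (plus strand). It was at 6.04 and 7.84 CPM in RH/+, at 13.4 and 12.97 CPM for RH/RQ vehicle and at 12.6 and 10.2 CPM after treatment. Both RH/RQ groups lay above RH/+ without overlap. The log2 fold change between the vehicle groups was 0.85 (standard error 0.16; adjusted p = 0.00148 by limma), and it too was called under 15 of 16 alternatives. Macrophages express Hmox1, and 4 of 8 macrophage markers were higher in RH/RQ vehicle than in RH/+ hearts, with 0 lower. Their summed level was 169 to 171 CPM in RH/+, 215 to 230 CPM for RH/RQ vehicle and 186 to 202 CPM after treatment. Adgre1 had group means of 11.2 and 16 CPM, and Cd163 of 15.8 and 17.3 CPM, in RH/+ and RH/RQ vehicle hearts. The part of these cells in the Hmox1 result was not tested, and in whole tissue more cells of a type and more RNA per cell cannot be told apart.

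Srxn1 encodes sulfiredoxin, which restores peroxiredoxins after overoxidation, on chromosome 2 at 152105516 to 152111376 (plus strand). It was at 27.1 and 25.5 CPM in RH/+, at 41.7 and 41.9 CPM for RH/RQ vehicle and at 31.7 and 32.5 CPM after treatment. The 3 groups did not overlap, with the treated hearts between the others. Its log2 fold change between the vehicle groups was 0.65 (standard error 0.11; adjusted p = 0.000383 by limma). Of the 10 genes it was the only one called in this comparison under all 16 alternatives.

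Txnrd1, the cytosolic thioredoxin reductase, which keeps thioredoxin reduced with electrons from NADPH, lies on chromosome 10 at 82833951 to 82897712 (plus strand). Its level was 69.3 and 74.0 CPM in RH/+, 91.3 and 88.9 CPM for RH/RQ vehicle and 81.7 and 78.3 CPM after treatment. The groups did not overlap, and the treated hearts again lay between the others. The log2 fold change between the vehicle groups was 0.33 (standard error 0.09; adjusted p = 0.0425 by limma). The call was lost under 8 of 16 alternatives, among them edgeR, DESeq2, TMM factors and the loss of any of the 4 vehicle libraries, with a highest adjusted p of 0.421.

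Gclc and Gclm encode the catalytic and modifier subunits of glutamate-cysteine ligase, the rate-limiting enzyme of glutathione synthesis. Gclc (chromosome 9, 77754535 to 77794485, plus strand) was at 15.5 and 18.0 CPM in RH/+, at 25.8 and 18.2 CPM for RH/RQ vehicle and at 21.9 and 22.0 CPM after treatment. The RH/RQ vehicle libraries stood far apart, and the lower of them was close to the higher RH/+ library. Its log2 fold change between the vehicle groups was 0.36 (standard error 0.14), which was not called (limma adjusted p = 0.174), and leaving out RH/RQ vehicle replicate 1 brought it to 0.12, while leaving out replicate 2 brought it to 0.60 with a call (limma adjusted p = 0.0257). Gclm (chromosome 3, 122245557 to 122270732, plus strand) was at 24.2 and 21.1 CPM in RH/+, at 27.1 and 25.6 CPM for RH/RQ vehicle and at 24.9 and 26.8 CPM after treatment. Its log2 fold change was 0.21 (95% interval -0.03 to 0.45; limma adjusted p = 0.379), and no alternative called it.

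Cat encodes catalase, the peroxisomal enzyme that splits hydrogen peroxide, on chromosome 2 at 103453849 to 103485160 (minus strand). It was at 233 and 223 CPM in RH/+, at 302 and 289 CPM for RH/RQ vehicle and at 281 and 287 CPM after treatment. Both RH/RQ groups lay above RH/+. The log2 fold change between the vehicle groups was 0.37 (standard error 0.09; adjusted p = 0.0144 by limma), and the call was lost under 6 of 16 alternatives, which were edgeR, no filter on low genes and the loss of any of the 4 vehicle libraries (adjusted p up to 0.175). Red cells are rich in catalase, and 0 of 5 erythroid markers were called in this comparison by limma, with summed levels of 251 to 302 CPM in RH/+ and 230 to 348 CPM for RH/RQ vehicle hearts. In treated hearts the erythroid sum was 158 to 184 CPM, and 4 of the 5 markers were lower than in RH/+. Cat at the treated level given above was not called against RH/+ (limma adjusted p = 0.0591). The part of red cells in the Cat values was not tested.

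Sod2, the superoxide dismutase of the mitochondrial matrix (chromosome 17, 13006846 to 13040063, plus strand), was the only one of the 10 genes with lower levels in RH/RQ hearts. It was at 710 and 725 CPM in RH/+, at 601 and 620 CPM for RH/RQ vehicle and at 638 and 631 CPM after treatment. Both RH/RQ groups lay below RH/+ without overlap. The log2 fold change between the vehicle groups was -0.23 (standard error 0.10), which was not called by limma (adjusted p = 0.204) or edgeR, while DESeq2 called it (adjusted p = 0.0255). In the authors' deposited table its log2 fold change was -0.28 with an adjusted p of 0.0115. The summed level of the 6 cardiomyocyte markers was 44592 to 48185 CPM in RH/+ and 40204 to 42528 CPM for RH/RQ vehicle hearts, with 0 of 6 called by limma and 2 at an unadjusted p under 0.05; its part in the Sod2 values was not tested.

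Gpx3 encodes the secreted, plasma form of glutathione peroxidase, on chromosome 11 at 54902453 to 54910377 (plus strand). Its level was 212 and 210 CPM in RH/+, 214 and 220 CPM for RH/RQ vehicle and 280 and 226 CPM after treatment. The vehicle groups were nearly level, with a log2 fold change of 0.04 (95% interval -0.17 to 0.24; limma adjusted p = 0.905) that turned to values just below 0 with edgeR, DESeq2 and TMM factors. The treated libraries differed from each other by more than all 4 vehicle libraries did.

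Txnip, which binds and inhibits thioredoxin and restrains glucose uptake, lies on chromosome 3 at 96557957 to 96561883 (plus strand). It was at 338 and 334 CPM in RH/+, at 503 and 432 CPM for RH/RQ vehicle and at 448 and 410 CPM after treatment. All 4 RH/RQ libraries lay above both RH/+ libraries. Its log2 fold change between the vehicle groups was 0.47 (standard error 0.10; adjusted p = 0.00502 by limma), and the call was lost without RH/RQ vehicle replicate 1 or without the filter on low genes (adjusted p up to 0.169).

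All 10 genes had vehicle groups that did not overlap, 9 with RH/RQ above RH/+ and Sod2 below; with 2 libraries a group this was so for 49.3% of all genes, 30.8% with RH/RQ above and 18.5% below. In the authors' deposited table of this comparison Nqo1 (log2 fold change 0.91, adjusted p 7.05e-16), Hmox1 (0.88, adjusted p 0.000256) and Srxn1 (0.62, adjusted p 1.2e-05) were among the 427 genes of the shorter list, which held no gene under a 1.502-fold change. Txnip, Cat and Txnrd1 had adjusted p-values of 2.63e-05, 0.00209 and 0.0438 in the authors' deposited table and smaller folds. Over all genes limma called 585 higher and 253 lower, against 524 and 394 with edgeR, so that split shifted with the scaling. Fibroblast markers also moved in this comparison, 4 of 6 rising and 0 falling, from a summed 756 to 804 CPM in RH/+ to 1168 to 1277 CPM for RH/RQ vehicle hearts, and their part in the rises of the 6 genes was not tested.

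Treated RH/RQ hearts were next compared with RH/RQ vehicle hearts, which had the same genotype, had not received AAV-hpCas13d and also differed in sex-linked RNA. By limma 0 of the 10 genes were called, against 2.05% of all genes (1.22% higher and 0.827% lower); at an unadjusted p under 0.05 Nqo1 and Srxn1 were lower and Gpx3 was higher. The recovered reads gave a lower Srxn1 with edgeR (2.27% of all genes called) and lower Srxn1 and Nqo1 with DESeq2 (2.2% called). The group ranges did not overlap for 7 genes, 5 lower and 2 higher in treated hearts, as for 40.5% of all genes (14.4% lower and 26.2% higher). The median log2 fold change of the 10 was -0.09, beside 0.04 for all genes. Both comparisons use the RH/RQ vehicle libraries, so their values for a gene are not independent of each other.

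Srxn1 came closest to a call. It went from 41.7 and 41.9 CPM to 31.7 and 32.5 CPM, a log2 fold change of -0.37 (standard error 0.11; adjusted p = 0.0747 by limma). It was called under 5 of 16 alternatives, edgeR, DESeq2, TMM factors, CPM over nuclear genes and the replicate block, at a lowest adjusted p of 0.0103. The authors' deposited table gave it a log2 fold change of -0.44 with an adjusted p of 0.0397, and its shorter list of 185 genes held none of the 10. Nqo1 had a log2 fold change of -0.30 (95% interval -0.52 to -0.08; limma adjusted p = 0.19) and was called by DESeq2 at an adjusted p of 0.036.

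The other genes differed less. Hmox1 had a log2 fold change of -0.20 (95% interval -0.53 to 0.12), Txnrd1 of -0.17 (-0.36 to 0.02) and Txnip of -0.12 (-0.33 to 0.09). Gclc (0.02, from -0.28 to 0.31), Gclm (-0.03, from -0.27 to 0.22), Cat (-0.06, from -0.24 to 0.13) and Sod2 (0.06, from -0.15 to 0.26) lay closest to 0, and the sign of Gclc and Sod2 turned with edgeR, DESeq2, TMM factors and CPM over nuclear genes. Gpx3 had a log2 fold change of 0.22 (0.01 to 0.42; limma adjusted p = 0.373) and was called higher only without treated replicate 2 (limma adjusted p = 0.0276), that is, from the treated library at 280 CPM alone.

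**Figure D2:**
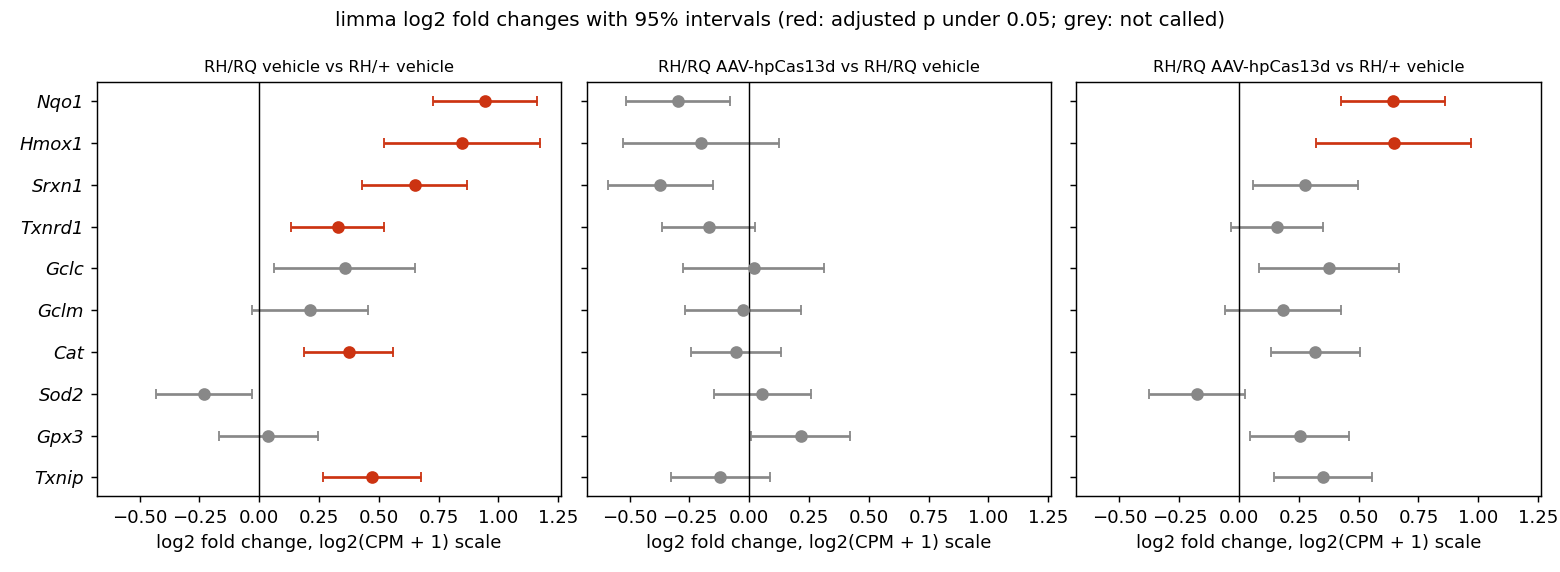
Log2 fold change on the log2(CPM + 1) scale (horizontal axes) with its 95% interval for each gene in the 3 comparisons, red where limma called it and grey where not. The 6 red genes on the left run from 0.33 to 0.94, the middle panel has none, and Nqo1 and Hmox1 are red on the right.

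Treated RH/RQ hearts and RH/+ vehicle hearts had the same sex-linked pattern and differed in genotype and virus. By limma 2 of the 10 genes were higher, Nqo1 and Hmox1, and 0 were lower; of all genes 2.33% were higher, 0.53% were lower and 2.86% were called. With edgeR the same count was 2 (2.45% of all genes called), and with DESeq2 it was 3 with Sod2 lower (2.59% called). Nqo1 was at 74.3 ± 7.55 CPM in treated and 47.1 ± 1.79 CPM in RH/+ hearts (mean ± SD, n = 2), a log2 fold change of 0.64 (standard error 0.11; adjusted p = 0.000682 by limma). Hmox1 was at 11.4 ± 1.66 and 6.94 ± 1.28 CPM (mean ± SD, n = 2), a log2 fold change of 0.65 (standard error 0.16; adjusted p = 0.0224 by limma), and it was not called without RH/+ replicate 1 or without treated replicate 1. In the same comparison 0 of 8 macrophage markers were called by limma, with 3 at an unadjusted p under 0.05. The groups did not overlap for 5 of the 8, all higher in treated hearts, as for 35% of all genes. The part of macrophages in the Hmox1 difference was not tested. In the authors' deposited table Nqo1 had a log2 fold change of 0.55 with an adjusted p of 0.00032, and Hmox1 one of 0.61 with an adjusted p of 0.158; the shorter list of 194 genes held none of the 10.

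Cat (0.32, limma adjusted p = 0.0591) and Txnip (0.35, limma adjusted p = 0.0594) fell just short, with groups that did not overlap. Srxn1 was at 0.28 (95% interval 0.06 to 0.50; limma adjusted p = 0.192), Gclc at 0.38, Gpx3 at 0.25, Gclm at 0.18 and Txnrd1 at 0.16 on the log2 fold scale. Sod2 stood at -0.18 and was called lower by DESeq2 alone (adjusted p = 0.0419). All 10 genes had groups that did not overlap, 9 of them higher in treated hearts, as for 44.7% of all genes (35% higher and 9.66% lower). Without treated replicate 2 limma called 4 of the 10, adding Gpx3 and Txnip, and without RH/+ replicate 1 or treated replicate 1 it called Nqo1 alone. Fibroblast markers stood higher in treated hearts as well, 5 of 6 called, with a summed 1131 to 1320 CPM. Over all genes limma called 391 higher and 89 lower and edgeR 248 and 163; for treated against vehicle RH/RQ hearts these counts were 205 and 139 with limma and 181 and 200 with edgeR.

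The surrounding pathway was read from 10 lists with 179 further genes, of which 165 were tested. Between the vehicle groups 7 rose and 5 fell, 7.27% of those tested beside 4.99% of all genes, and the median log2 fold change was 0.0049. With treatment 6 rose and 2 fell, 4.85% beside 2.05%, and between treated and RH/+ hearts 7 were higher and 2 lower, 5.45% beside 2.86%. Between the vehicle groups edgeR called 6 rises and 10 falls in these lists and DESeq2 7 and 15. Between treated and RH/+ hearts both called 3 higher and 4 lower, and with treatment both called 6 higher and 3 lower.

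None of the 13 regulators and partners of NRF2 was called in any comparison by limma, edgeR or DESeq2. Of all genes limma called 4.99% between the vehicle groups, 2.05% with treatment and 2.86% between treated and RH/+ hearts. A count of 0 in so short a list is close to those shares. In that order of comparisons, 3, 1 and 5 of the 13 had an unadjusted limma p under 0.05. The share of all genes at that unadjusted threshold is not given here, so such counts describe the lists alone. Nfe2l2 itself was at 67.3 and 60.6 CPM in RH/+, at 73.9 and 69.5 CPM for RH/RQ vehicle and at 74.1 and 75.0 CPM after treatment, with a log2 fold change of 0.16 between the vehicle groups (95% interval -0.04 to 0.36). Keap1 was at 45.2 ± 5.81, 41.5 ± 1.74 and 50.0 ± 6.48 CPM, and Bach1 at 39.9 ± 0.756, 42.6 ± 4.03 and 43.4 ± 0.745 CPM in the same order (mean ± SD, n = 2). These are RNA levels, while NRF2 is controlled mainly through its protein. Of the 13 tested genes of glutathione synthesis and recycling and the 12 of NADPH supply, 0 were called in any comparison by limma, edgeR or DESeq2. For lists of this size that is again close to the shares of all genes. At an unadjusted limma p under 0.05 the glutathione list had 1, 2 and 0 genes and the NADPH list 0, 2 and 4 in the same order of comparisons.

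**Figure D3:**
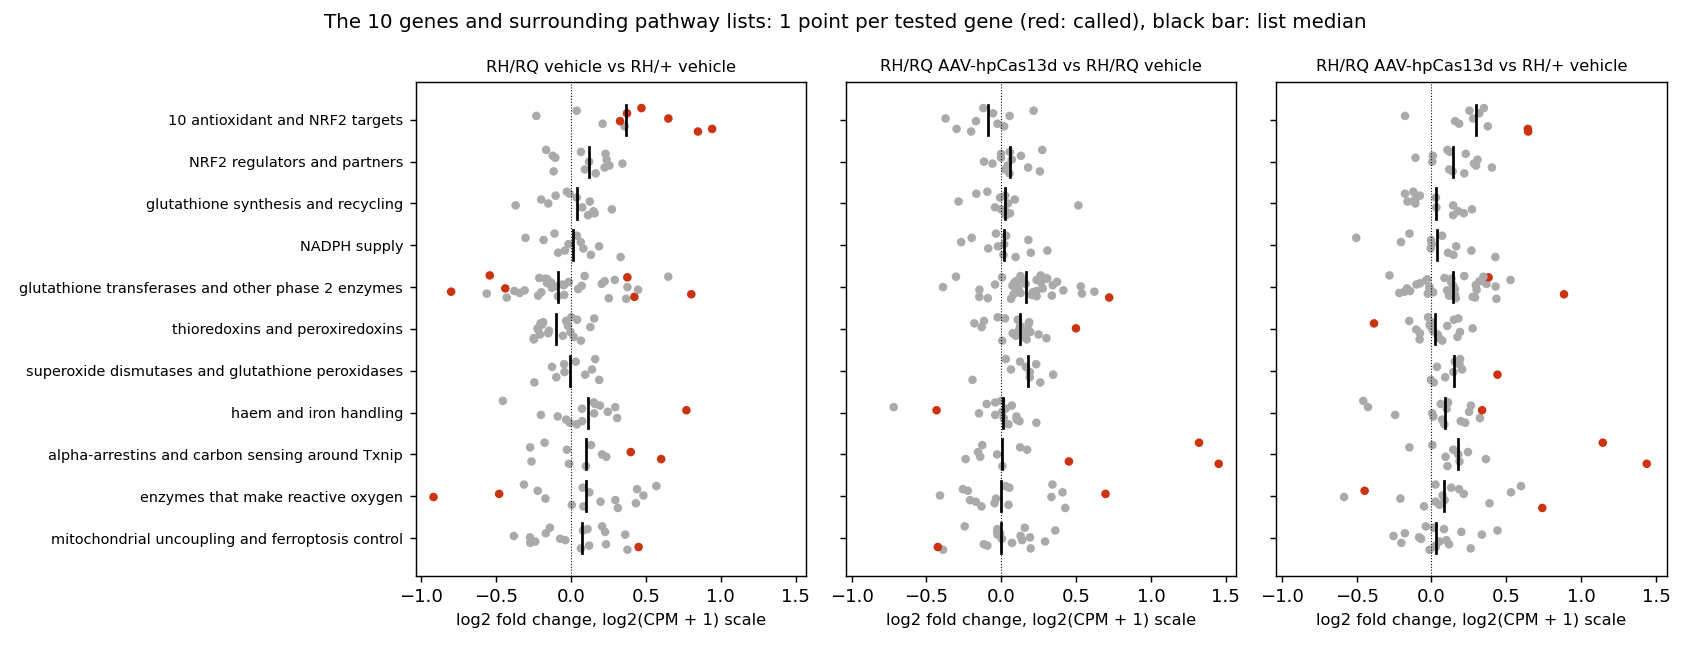
Log2 fold change (horizontal axes) of every tested gene, 1 point each, for the 10 antioxidant and NRF2 target genes and the 10 surrounding lists, in the 3 comparisons; red points were called by limma and black bars are medians. The 10 genes have the rightmost median between the vehicle groups (0.37), and the regulators, glutathione synthesis and NADPH lists have no red point.

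Among glutathione transferases and other phase 2 enzymes 3 of 37 rose and 3 fell between the vehicle groups by limma, against 2 and 6 with edgeR and TMM factors and 3 and 6 with DESeq2. Without either RH/+ library or RH/RQ vehicle replicate 2 limma called 1 rise and 2 falls. Gstm5, a mu-class transferase, rose from 15.3 ± 1.54 to 27.4 ± 3.66 CPM and stood at 29.0 ± 2.63 CPM after treatment (mean ± SD, n = 2), with log2 fold changes of 0.80 and 0.89 against RH/+ (limma adjusted p = 0.000278 and 0.00015). Gsta4, which conjugates the lipid peroxidation product 4-hydroxynonenal, rose from 74.8 ± 0.572 to 100.7 ± 1.62 CPM. Abcc1, an exporter of glutathione conjugates, completed the rises at 33.6 ± 0.267 and 43.9 ± 1.83 CPM (mean ± SD, n = 2) and was also called in treated hearts against RH/+. The falls were Ces1d, a carboxylesterase, from 158 ± 12.7 to 108 ± 3.57 CPM, Gstp2, a pi-class transferase, from 3.30 ± 0.471 to 1.46 ± 0.0968 CPM, and Gstk1 of mitochondria and peroxisomes, from 77.0 ± 3.51 to 56.5 ± 1.02 CPM (mean ± SD, n = 2). Reads of Gstm5 and Gstp2 could be shared with family members of similar sequence, which was not tested and makes their counts less certain. With treatment Gsta3 rose from 22.7 ± 4.57 to 38.0 ± 5.79 CPM (mean ± SD, n = 2), and limma called no other gene of this list, while edgeR, DESeq2 and TMM factors each called 1 higher and 1 lower. Calls were lost without either RH/+ library or RH/RQ vehicle replicate 2 for Gsta4, without replicate 2 of either vehicle group for Gstp2, without treated replicate 1 or RH/RQ vehicle replicate 2 for Gsta3, and without any of the 4 libraries compared for Abcc1 in treated hearts, where edgeR, DESeq2, TMM factors, a pseudocount of 5 and nuclear CPM did not call it either.

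In the iron list limma called 1 of 16 genes in each comparison, always Tfrc, the transferrin receptor that brings iron into cells. It was at 82.5 and 80.6 CPM in RH/+, at 142 and 137 CPM for RH/RQ vehicle and at 98.2 and 109 CPM after treatment, and the 3 groups did not overlap. It rose between the vehicle groups by 0.77 on the log2 scale (standard error 0.09; adjusted p = 7.76e-06 by limma) under all 16 alternatives and fell with treatment by 0.43 (standard error 0.09; adjusted p = 0.011 by limma), where the call was lost without either RH/RQ vehicle library, without treated replicate 1 or with no filter. Its difference between treated and RH/+ hearts (0.34; limma adjusted p = 0.0488) was called under 3 of 16 alternatives. Other tools and scalings called a gene of this list other than Tfrc: edgeR had 1 fall beside the rise of Tfrc between the vehicle groups, and edgeR, DESeq2 and TMM factors had 1 gene lower and 0 higher between treated and RH/+ hearts.

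Around Txnip 2 of 11 genes rose between the vehicle groups. They were Arrdc4, an alpha-arrestin closely related to Txnip, from 12.98 ± 0.641 to 20.3 ± 2.34 CPM, and Mlxipl, which encodes the carbohydrate-sensing factor ChREBP, from 30.1 ± 0.238 to 40.0 ± 2.92 CPM (mean ± SD, n = 2). The call of Arrdc4 was lost without replicate 1 of either vehicle group, and that of Mlxipl without any of the 4 vehicle libraries. With treatment 3 other genes of this list rose: Arrdc2 from 5.53 ± 1.66 to 16.7 ± 3.31 CPM, Ddit4, an inhibitor of mTORC1 signalling, from 56.7 ± 2.66 to 144.6 ± 28.9 CPM, and Arrdc3 from 36.3 ± 3.27 to 50.0 ± 4.65 CPM (mean ± SD, n = 2). Arrdc2 and Ddit4 were also higher than in RH/+ hearts, with log2 fold changes of 1.44 and 1.14 (limma adjusted p = 3.16e-05 and 1.37e-06). The call of Arrdc3 was lost with TMM factors, with CPM over nuclear genes, with no filter on low genes and without replicate 2 of either RH/RQ group. Txnip itself was not called with treatment.

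Of 20 thioredoxins, peroxiredoxins and related genes 0 were called between the vehicle groups by limma or edgeR and 2 were called lower by DESeq2; 6 had an unadjusted limma p under 0.05, and the median log2 fold change was -0.10. With treatment Sesn1, a stress-induced sestrin, rose from 119 ± 6.27 to 169 ± 0.0371 CPM (mean ± SD, n = 2; limma adjusted p = 0.00245). Msrb1, a methionine sulfoxide reductase, was lower in treated than in RH/+ hearts, at 131 ± 13.4 against 171 ± 10.5 CPM (mean ± SD, n = 2). The call of Sesn1 was lost without RH/RQ vehicle replicate 2, and that of Msrb1 without either RH/+ library or treated replicate 2. The list of other superoxide dismutases and glutathione peroxidases also held the related genes Ccs, Selenow, Selenop and Park7. Of its 10 tested genes limma called 1 in any comparison: Gpx1, the main cellular glutathione peroxidase. It was at 84.7 ± 15.1 CPM in treated and 61.6 ± 1.29 CPM in RH/+ hearts (mean ± SD, n = 2; limma adjusted p = 0.0451). That call was lost with edgeR, DESeq2 and TMM factors and without 3 of the 4 libraries. Without treated replicate 2 limma called 4 genes of this list higher with treatment and 3 higher than in RH/+ hearts, and DESeq2 called 1 lower between the vehicle groups.

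Of 16 enzymes that make reactive oxygen 0 rose and 2 fell between the vehicle groups by limma, with 8 at an unadjusted p under 0.05, and edgeR and DESeq2 called 3 lower. Xdh, xanthine dehydrogenase, fell from 179 ± 7.05 to 128 ± 7.66 CPM and stood at 209 ± 16.9 CPM after treatment (mean ± SD, n = 2), a rise with treatment of 0.70 on the log2 scale (standard error 0.09; adjusted p = 8.24e-05 by limma). Duox1, a dual oxidase, was low throughout and fell from 1.45 ± 0.0065 to 0.296 ± 0.0533 CPM (mean ± SD, n = 2). Between treated and RH/+ hearts Nox4, an NADPH oxidase that makes hydrogen peroxide, was higher at 2.75 ± 0.656 against 1.23 ± 0.0681 CPM, and Maob, monoamine oxidase B, was lower at 50.2 ± 2.14 against 68.8 ± 1.33 CPM (mean ± SD, n = 2). The call of Nox4 was lost with edgeR and DESeq2 and without either RH/+ library or treated replicate 2, that of Maob without either RH/+ library, and the fall of Xdh without RH/RQ vehicle replicate 2. Ucp3, a mitochondrial uncoupling protein, was the gene that limma called in the list of uncoupling and ferroptosis control, at 28.5 ± 1.16 CPM in RH/+, 39.3 ± 2.67 CPM for RH/RQ vehicle and 29.1 ± 2.5 CPM after treatment (mean ± SD, n = 2). It rose between the vehicle groups (limma adjusted p = 0.0166) and fell with treatment (limma adjusted p = 0.0472), but the first call was lost without either RH/+ library or RH/RQ vehicle replicate 2, and the second without any library other than treated replicate 1. In this list DESeq2 called 2 genes lower between the vehicle groups, and edgeR, DESeq2 and TMM factors 2 lower with treatment.

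**Figure D4:**
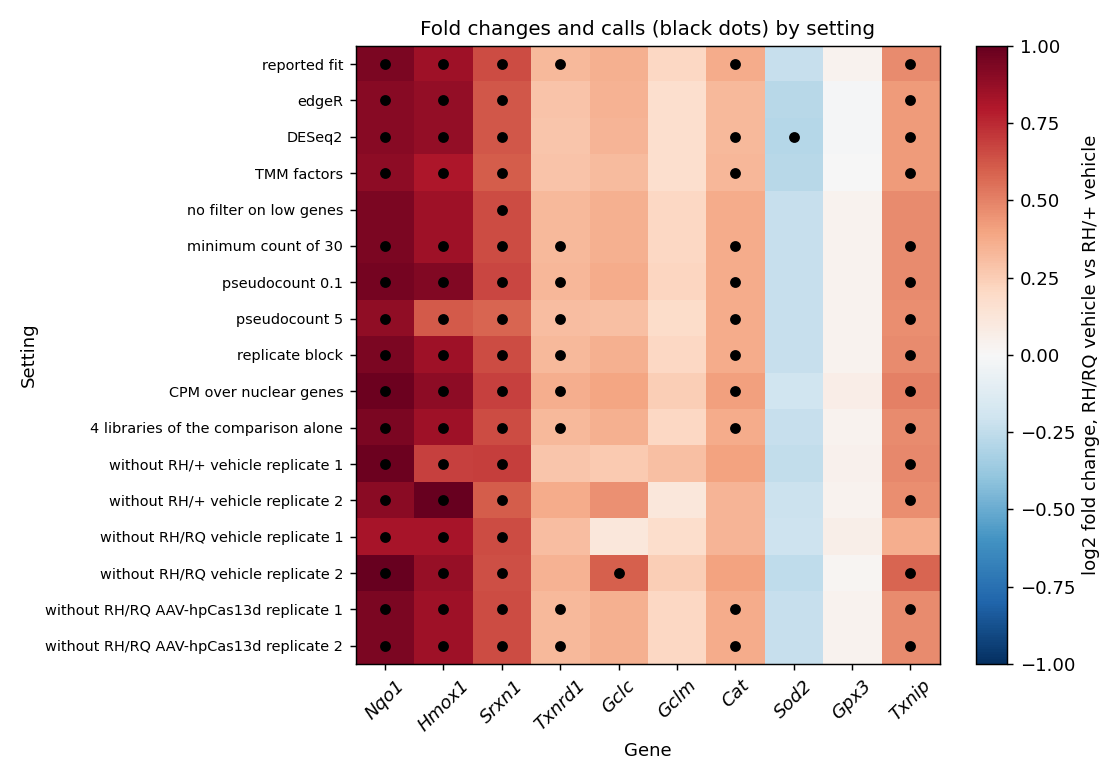
Log2 fold change between the vehicle groups, RH/RQ minus RH/+ (colour scale) of each gene under the reported fit and 16 alternatives (rows), with a black dot where the adjusted p was under 0.05. Srxn1 has a dot in every row, Nqo1 and Hmox1 lack one where low genes were not filtered, and Txnrd1 lacks 8.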

How the data were processed

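Per the labels' protocols, polyadenylated RNA was selected before library construction. HISAT2, HTSeq, DESeq2 and mm10 are named by the submitters' processing notes; tool roles, versions, annotation and strand setting are not given in the sources used here, and reads of overlapping or antisense genes may be mixed. Expression values are CPM as deposited, in 3 tables of 4 libraries that agreed for shared libraries. All of them (100%) were multiples of 1 read within a tolerance of 0.001, which gave back the reads. The deposited tables also give, per the file headers, a log2 fold change and adjusted p-value per gene.

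The reported test was limma (3.58.1) with a trend on log2(CPM + 1), in 1 fit of all 6 libraries and 3 group means, after filterByExpr with a minimum count of 10; the scale understates the change of low genes. Calls had a Benjamini-Hochberg adjusted p under 0.05 over all 16804 genes. The 16 alternatives were edgeR (4.0.16) and DESeq2 (1.42.0) on recovered reads, TMM factors, no filter, a minimum count of 30, pseudocounts of 0.1 and 5, a replicate block, CPM over nuclear genes, the 4 libraries of a comparison alone, and the loss of each of the 6 libraries. Tests were checked on simulated reads with 1 spread shared by all genes. There limma recovered 52.2% to 59.7% of 1.5-fold changes and 98.5% or more of 2-fold changes. Libraries of a group differed beyond sampling noise (mean chi-square per gene of 13.4 in RH/+, 18.2 for RH/RQ vehicle and 26 for treated hearts). Genes of the mitochondrial genome held 20.9% and 19.5% of reads in RH/+, 21.6% and 22.4% for RH/RQ vehicle and 17.2% and 19.9% after treatment. Coordinates and exon lengths are from GENCODE M21 (GRCm38), and promoters from RefSeq. The genes, lists and naming rule were chosen with earlier results of these data known; the rule named the 10 genes, Nfe2l2, Keap1, Bach1, defining markers and, per list and comparison, up to 4 called genes with the smallest p. Gstk1 and, between the vehicle groups, Abcc1 were named after their values were seen. Of the 179 list genes 175 had a row.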

Additional observations from a re-analysis of the deposited data

How the results depend on the processing

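Of the 10 genes, 6 were called between the vehicle groups, 0 with treatment and 2 between treated and RH/+ hearts. Leaving out 1 library gave 3 to 6, 0 to 1 and 1 to 4 calls; the group with 1 library left was then assumed to vary like the others. Without a filter on low genes the counts were 1, 0 and 0 (57, 15 and 7 over all genes, against 838, 344 and 480). With treatment edgeR, TMM factors and CPM over nuclear genes each called 1 gene and DESeq2 2; the nuclear scaling was chosen after the data were seen. The replicate block, taken from the leading digit of the sample titles, called 1 gene with treatment and 4 between treated and RH/+ hearts (567 genes in all with treatment); the labels state no pairing, and the deviations of same-numbered libraries correlated at 0.13, -0.0205 and 0.0742 over genes. Other settings kept these counts within 1.5 times.

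Signs turned only for log2 fold changes that were near 0 in the reported fit and not called. For Gpx3 between the vehicle groups they were -0.0089 with edgeR, -0.0119 with DESeq2 and -0.0075 with TMM factors. With treatment, edgeR, DESeq2, TMM factors and nuclear CPM gave -0.0584, -0.0556, -0.0404 and -0.0419 for Gclc and -0.004, -0.0034, -0.0062 and -0.0073 for Sod2. Leaving out 1 library gave -0.2234 to 0.2605 for Gclc and -0.0765 to 0.025 for Gclm. The lowest Gclc value came without RH/RQ vehicle replicate 2 and was not near 0. The cause was not tested. The number of libraries, 2 a group, limits the precision of every value.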
